A study of Mus musculus with 12 samples.

Results

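Keratins are the intermediate filament proteins of epithelia. Type I keratins (among them *Krt14*, *Krt17*, *Krt18* and *Krt19*) pair with type II keratins (among them *Krt5*, *Krt6a*, *Krt7*, *Krt8* and *Krt80*) to form heteropolymers, so that cells build their filaments from matched pairs. In the mammary gland, *Krt8*, *Krt18*, *Krt19* and *Krt7* mark the luminal cells that line the ducts, whereas *Krt5*, *Krt14* and *Krt17* mark the basal or myoepithelial layer and *Krt6a* is known from progenitor and stressed epithelial cells. *Krt80* is a type II keratin that is less tied to a lineage. These 9 genes were taken by symbol, of 35521 genes listed, by a rule that uses no measured value, although earlier results of these data were known.

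RNA was sequenced from 4T1 cells, a mouse mammary carcinoma line of BALB/c origin, in 3 groups with 4 libraries each. Tu-primed cells were cultured for 48 h, across a transwell with 0.4 μm pores, with Gr1+ myeloid cells isolated by magnetic sorting from tumors of 4T1-bearing Balb/C mice at day 21 after injection. Spl-primed cells were cultured in the same way with Gr1+ cells from the spleens of such mice, and parental 4T1 cells were not primed. All groups are 1 cell line, and the labels do not say whether the replicates came from separate cultures or mice, so that the p-values measure the spread between these libraries, which may be technical. The study asked how tumor-educated, compared with spleen-derived, Gr1+CD11b+ cells alter cancer cells. Both comparisons with the parental cells share the same 4 parental libraries.

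Libraries held between 24566183 and 31637755 assigned reads. Of the 9 keratins, 6 passed the filter on low counts, and 12555 genes were tested in all. TMM factors, which scale each library to the others, lay between 1.01 and 1.05 in the 8 primed libraries and between 0.88 and 0.95 in the parental ones. Libraries also differed by base composition: the correlation of a library's deviations with GC content over genes ranged from -0.41 (Spl-primed replicate 1) to 0.39 (parental replicate 4). Spl-primed replicate 3 stood apart by transcript length, with a correlation of -0.53. Of 16 granulocyte and monocyte markers, 9 had at most 3 reads in every library. The summed level of the 16, of which *Cd14* is the main part, was 17.9 to 20.1 CPM (read counts scaled by library size and TMM factor) in Tu-primed, 14.7 to 18.2 CPM in Spl-primed and 15.2 to 18.7 CPM in parental libraries. *Ly6c2*, too low to be tested, had 15, 15, 16 and 8 reads in Tu-primed, 6, 2, 2 and 2 in Spl-primed and 1, 2, 1 and 2 in parental libraries. *Ptprc* went the other way, with 1, 1, 4 and 4 reads in Tu-primed, 7, 6, 5 and 1 in Spl-primed and 7, 6, 1 and 10 in parental libraries. Of 9 fibroblast markers, 5 had at most 3 reads in every library, and their summed level, of which *Pdgfra* is the main part, was 76.5 to 98.4 CPM in Tu-primed, 42.6 to 67.0 CPM in Spl-primed and 42.8 to 55.8 CPM in parental libraries. *Fap* and *Dcn*, too low to be tested, also had more reads in Tu-primed (9, 4, 14 and 5, and 6, 12, 5 and 5) than in parental libraries (0 throughout, and 0, 0, 2 and 3). *Col1a2* had 0 reads in the Tu-primed libraries. The part of other cells in the results was not tested.

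Keratins of the luminal lineage made up nearly all of the keratin RNA, and none of the basal lineage had more than 14 reads in any library. TPM values, which correct for transcript length, compare genes within a library. *Krt18*, the type I partner of *Krt8*, had the highest level, with 729 to 987 TPM over the 12 libraries. *Krt8* followed with 655 to 951 TPM. The ratio of *Krt18* to *Krt8* was 1.04 to 1.17, above 1 in 12 of 12 libraries, although their ranges overlapped. *Krt7* had 217 to 298 TPM, *Krt19* had 44.1 to 86.1 TPM and *Krt80* had 8.32 to 13.2 TPM. Within each library this order held without exception down to *Krt14*, with 0.20 to 0.52 TPM.

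**Figure D1:**
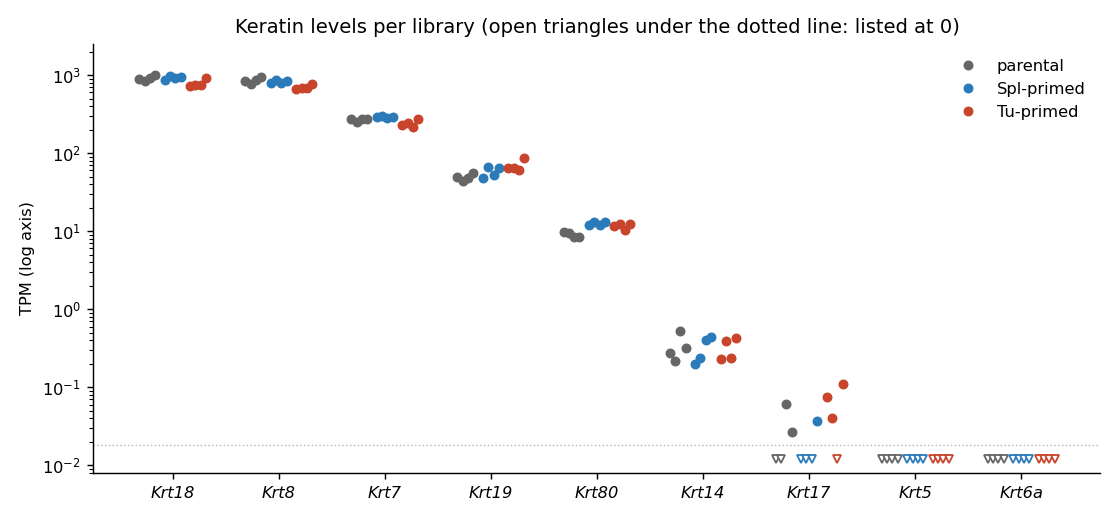
Level of each keratin in TPM (log axis) in the 4 libraries of each group, in order of level, with values of 0 drawn as open triangles under the dotted line. *Krt18*, *Krt8*, *Krt7*, *Krt19* and *Krt80* lie above 8 TPM in every library, *Krt14* lies under 1 TPM, and *Krt5* and *Krt6a* are at 0 throughout.

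The basal partners *Krt5* and *Krt14* were not detected as a pair. *Krt5* had 0 reads in all 12 libraries, and so had *Krt6a*; in a single library a count of 0 allows up to 3 reads, which is between 0.094 and 0.13 CPM, a limit that covers counting error only. *Krt14* had 7, 11, 7 and 13 reads in Tu-primed, 7, 7, 13 and 10 in Spl-primed and 11, 7, 14 and 8 in parental libraries. *Krt17* had at most 3 reads in any library. *Krt14*, *Krt16* and *Krt17* are similar in sequence, and reads could be split between them. The 4 basal keratins together held 0.0207% ± 0.0056 (SD, n = 4) of the summed keratin TPM in Tu-primed, 0.0155% ± 0.0061 in Spl-primed and 0.0169% ± 0.0073 in parental cells. These shares overlapped between the groups. *Krt5*, *Krt6a* and *Krt17* did not pass the filter and were not tested.

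The summed level of the 9 keratins was 0.18% ± 0.018 of all TPM in Tu-primed, 0.21% ± 0.0084 in Spl-primed and 0.21% ± 0.015 in parental cells. *Krt8* and *Krt18* together supplied 81.6% to 85.1% of it in every library. The ratio of type I to type II keratins was 0.90 ± 0.029 in Tu-primed, 0.88 ± 0.023 in Spl-primed and 0.84 ± 0.0087 in parental cells. In parental libraries it ranged from 0.83 to 0.85, and 1 Spl-primed library (0.84) lay within that range.

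The keratins that differed from parental cells, *Krt8*, *Krt18* and *Krt7*, lie on chromosome 15 (GRCm38). So do *Krt80*, which was not called, and *Krt5* and *Krt6a*, which had no reads. *Krt8* (ENSMUSG00000049382, chr15:101996698-102004482, minus strand) and *Krt18* (ENSMUSG00000023043, chr15:102028180-102032027, plus strand) are neighbours that point away from each other, with RefSeq start sites (102004342 and 102028216, both inside the gene bounds given here) 23874 bases apart, and *Krt18* is the only type I keratin in the type II cluster. *Krt7* (ENSMUSG00000023039, plus strand) lies at chr15:101411043-101430313. RefSeq promoter windows (GRCm38.p6, 250 bases before to 50 after the start) were given for 5 of the 9 keratins: *Krt5*, *Krt7*, *Krt8*, *Krt14* and *Krt18*. The first 260 bases are shown, 5′ to 3′ on the gene's strand, for the 3 keratins that moved together, as the stretch before the RefSeq start; Krt7-204, a transcript described further on, starts upstream of the *Krt7* window, at 101411103. Capitals mark TATAA, the core of a TATA box, and GGGCGG, a GC box, on either strand. The windows cover chr15:102004333-102004592 for *Krt8*, chr15:102027966-102028225 for *Krt18* and chr15:101412153-101412412 for *Krt7*.
Krt8: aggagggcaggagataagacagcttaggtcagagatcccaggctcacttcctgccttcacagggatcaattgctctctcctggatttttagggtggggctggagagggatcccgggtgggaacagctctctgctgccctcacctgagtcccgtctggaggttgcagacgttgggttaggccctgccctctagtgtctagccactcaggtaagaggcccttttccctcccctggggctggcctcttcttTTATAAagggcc
Krt18: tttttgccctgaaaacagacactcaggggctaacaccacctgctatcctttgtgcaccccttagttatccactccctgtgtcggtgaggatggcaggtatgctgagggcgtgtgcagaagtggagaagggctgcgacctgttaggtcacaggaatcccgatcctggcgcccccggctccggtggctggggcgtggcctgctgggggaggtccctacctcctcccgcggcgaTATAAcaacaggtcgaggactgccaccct
Krt7: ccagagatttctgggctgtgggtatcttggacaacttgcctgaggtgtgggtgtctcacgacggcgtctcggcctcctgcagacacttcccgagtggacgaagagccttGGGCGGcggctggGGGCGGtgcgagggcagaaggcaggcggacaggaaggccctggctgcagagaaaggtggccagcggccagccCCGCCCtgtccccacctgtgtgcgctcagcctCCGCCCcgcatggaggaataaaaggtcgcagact
TATAA, searched on both strands, was in the windows of *Krt8* and *Krt18* and in 24.9% of all 32851 promoter windows. Its first base lay 19 bases before the RefSeq start of *Krt18*, and in *Krt8* it overlapped the start on both strands. The longer TATAAA, which contains TATAA, was in *Krt8* alone among the 5 keratins and in 13.6% of all windows. GGGCGG was in *Krt7*, at -141, -128, -56 and -24 from the start, and in 35.7% of all windows. Neither CCAAT (37.4% of all windows) nor TGANTCA, the AP-1 motif (7.81%), was in any of the 5 keratin windows, and the windows of *Krt5* and *Krt14* held none of the motifs searched. No motif searched was thus in the windows of all 3 keratins.

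*Krt8*, *Krt18* and *Krt7* were lower in Tu-primed than in parental cells, and *Krt19*, *Krt80* and *Krt14* did not pass the test. *Krt8*, the main type II keratin of simple epithelia, had 1337, 1202, 1537 and 1886 CPM in the parental libraries 1 to 4. In Tu-primed libraries *Krt8* had 824, 863, 820.0 and 976 CPM. In Spl-primed libraries *Krt8* had 1044, 1085, 1099 and 1054 CPM. Parental replicate 4 was the highest. No 2 groups overlapped for *Krt8*, though the share of all genes that separate in this way was not counted. The mean fell from 1491 ± 298 CPM (SD, n = 4) in parental to 871 ± 72.7 CPM in Tu-primed cells, a log2 fold change of -0.78 ± 0.11 (SE, edgeR's quasi-likelihood test, Benjamini-Hochberg adjusted p = 4.5e-05).

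*Krt18*, its partner, had 969.9, 898, 1135 and 1359.9 CPM in parental libraries. In Tu-primed libraries *Krt18* had 638, 663, 625 and 797 CPM. In Spl-primed libraries *Krt18* had 799.6, 849, 884 and 820.1 CPM. The order of the groups was that of *Krt8*, again without overlap and with no share over all genes counted. The log2 fold change between Tu-primed and parental cells was -0.68 ± 0.11 (SE, edgeR, adjusted p = 0.00016). *Krt7*, a type II keratin of ductal epithelia, had 395, 350.2, 437 and 513 CPM in parental, 268, 276, 249 and 321 CPM in Tu-primed and 332, 355, 375 and 332 CPM in Spl-primed libraries. Tu-primed libraries lay below all others (again with no count over all genes), whereas parental replicate 2 lay within the Spl-primed range. The log2 fold change of *Krt7* between Tu-primed and parental cells was -0.61 ± 0.10 (SE, edgeR, adjusted p = 0.00022).

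**Figure D2:**
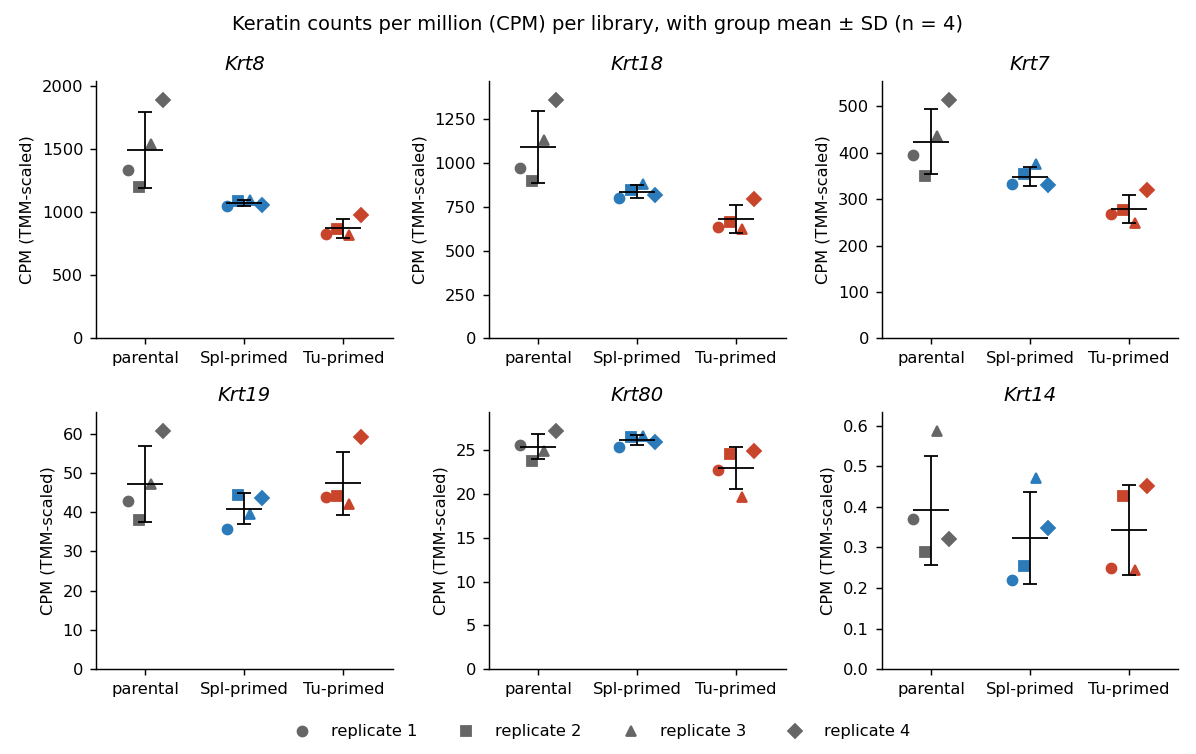
CPM of the 6 keratins that passed the filter, with each library as a symbol by replicate number and the group mean ± SD (n = 4) in black. Parental, Spl-primed and Tu-primed libraries follow each other downward for *Krt8* and *Krt18* without overlap, and the groups overlap for *Krt19* and *Krt14*.

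Of the 6 keratins tested, 3 were called lower and 0 higher in Tu-primed than in parental cells, where 28.0% of all genes tested were called lower and 31.2% higher. The count of 0 higher was also 0 at an unadjusted p under 0.05 and by DESeq2. The median log2 fold change of the 6 keratins was -0.40, beside 0.02 over all genes. RNA of whole cultures cannot tell fewer cells of a type from less RNA per cell. In the fitted values, the 95% interval of *Krt19*, a type I keratin that lacks a tail domain, ran from -0.29 to 0.30 around a log2 fold change of 0.0036 (adjusted p = 0.98, edgeR). *Krt19* had 42.9, 38.1, 47.1 and 60.7 CPM in parental, 35.7, 44.4, 39.6 and 43.6 CPM in Spl-primed and 43.8, 44.1, 42.0 and 59.2 CPM in Tu-primed libraries. Replicate 4 was the highest in both parental and Tu-primed cells, and the 3 groups overlapped. *Krt80* had 23.8 to 27.2 CPM in parental, 25.4 to 26.6 CPM in Spl-primed and 19.7 to 25.0 CPM in Tu-primed libraries, with a log2 fold change against parental cells of -0.14 ± 0.073 in Tu-primed cells (edgeR, adjusted p = 0.11). The interval of *Krt14*, at its low count, reached from -0.95 to 0.57.

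On the scale of the TMM factors *Krt8*, *Krt18* and *Krt7* were also lower in Spl-primed than in parental cells, whereas in TPM *Krt18* and *Krt7* had the opposite sign until the shift of all genes was taken off. The log2 fold change was -0.48 ± 0.11 for *Krt8* (SE, edgeR, adjusted p = 0.0027). For *Krt18* it was -0.38 ± 0.11 (edgeR, adjusted p = 0.012), and for *Krt7* it was -0.28 ± 0.10 (edgeR, adjusted p = 0.036). So 3 of 6 keratins were called lower and 0 higher, beside 22.5% and 25.7% of all genes, with 0 higher also at an unadjusted p under 0.05 and by DESeq2. With library size alone *Krt80* was called higher (0.21, adjusted p = 0.023, edgeR). The calls of *Krt18* (adjusted p = 0.11) and *Krt7* (0.37, edgeR) were then lost. In TPM *Krt80* was called higher as well (0.44, adjusted p = 0.0014, limma) and the calls of all 3 lower keratins were lost, *Krt8* at -0.054 (0.52). *Krt19* had a log2 fold change of -0.21 ± 0.14 (edgeR, adjusted p = 0.223) and *Krt80* of 0.04 ± 0.072 (edgeR, adjusted p = 0.66). The call of *Krt7* was lost without parental replicate 3 (adjusted p = 0.080) or 4 (0.12, edgeR), and without Spl-primed replicate 1 (0.085), 2 (0.062) or 4 (0.090). Without parental replicate 4 the difference of *Krt7* was -0.18 in place of -0.28.

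Between Tu-primed and Spl-primed cells, no keratin passed the test. For *Krt8*, *Krt18*, *Krt7* and *Krt80* every Tu-primed CPM value lay below every Spl-primed one. For *Krt18* the gap was narrow, with 797 CPM in Tu-primed replicate 4 and 799.6 CPM in Spl-primed replicate 1. The share of all genes that separate in this way was not counted, so the separation is a description only. The log2 fold change was -0.32 ± 0.10 for *Krt7* (SE, edgeR, adjusted p = 0.074), -0.30 ± 0.11 for *Krt18* (0.12), -0.30 ± 0.11 for *Krt8* (0.12), -0.18 ± 0.072 for *Krt80* (0.145) and 0.21 ± 0.14 for *Krt19* (0.39). The number called was 0 in both directions, beside 4.66% of all genes higher and 2.97% lower. At an unadjusted p under 0.05 (edgeR), 4 keratins were lower and 0 higher, and the share of all genes at that threshold was not counted. DESeq2 called *Krt7* lower (adjusted p = 0.047). Other sets of libraries gave more calls. With only the 8 libraries compared, *Krt7* (adjusted p = 0.037), *Krt8* (0.020) and *Krt18* (0.049) were called lower by edgeR. The same 3 were called without parental replicate 4. *Krt7* was called without parental replicate 2, and *Krt7* and *Krt18* were called without Tu-primed replicate 4. The 95% intervals of the fit were -0.55 to -0.10 for *Krt7* and -0.53 to -0.064 for *Krt8*.

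**Figure D3:**
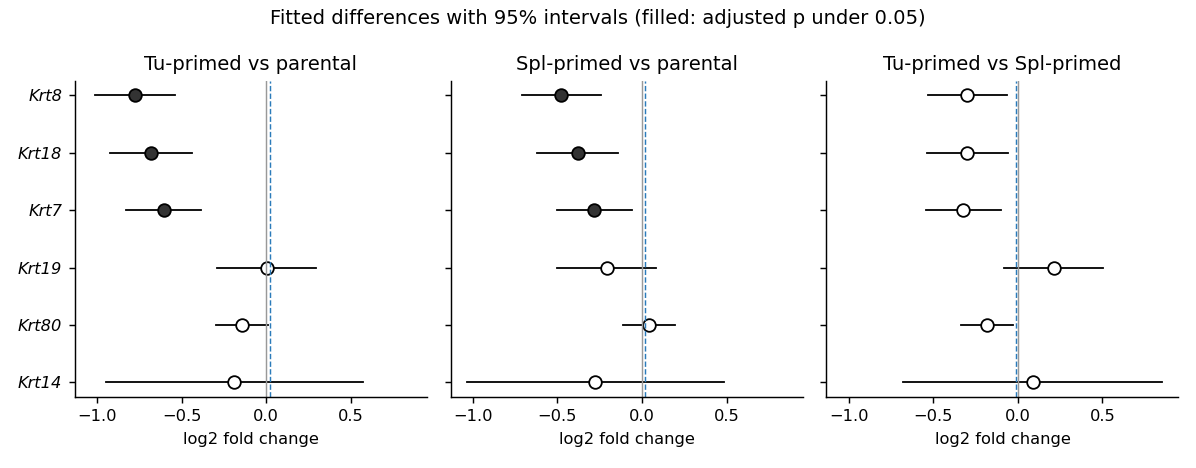
Log2 fold change of each tested keratin with its 95% interval in the 3 comparisons, on the scale of the TMM factors, where filled points have an adjusted p under 0.05 and the dashed line is the median of all genes. *Krt8*, *Krt18* and *Krt7* are filled and lie left of 0 in both comparisons with parental cells, and no point is filled between Tu-primed and Spl-primed cells.

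The ratio between the partners *Krt18* and *Krt8* was set apart in parental cells. The ratio of *Krt18* to *Krt8* reads was 0.78 ± 0.025 (SD, n = 4) in Tu-primed, 0.78 ± 0.016 in Spl-primed and 0.73 ± 0.012 in parental libraries. It ranged from 0.72 to 0.75 in parental and from 0.76 to 0.82 in primed libraries, so that primed and parental libraries did not overlap. The ratio of *Krt7* to *Krt8* reads was 0.272 to 0.296 in parental and 0.304 to 0.341 in primed libraries, again without overlap. The ratio of *Krt19* to *Krt18* reads was 0.069 ± 0.0036 in Tu-primed, 0.049 ± 0.0046 in Spl-primed and 0.043 ± 0.0015 in parental libraries, and every Tu-primed value (0.0665 to 0.0743) lay above all others (0.0415 to 0.0532). These ratios are within a library and do not depend on its scaling. They do depend on the correction for transcript length, and how often ratios of other genes separate in this way was not counted. In TPM the ratio of *Krt7* to *Krt8* in Tu-primed replicate 3 (217 and 676 TPM) lay within the parental range.

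The scaling of the libraries bears on the comparisons with parental cells. With library size alone the median of all genes was shifted by 0.21 in Tu-primed and by 0.19 in Spl-primed against parental cells, and on log2(TPM + 1) by 0.40 and 0.34. Relative to that shift *Krt8* differed by -0.79 and -0.49 with library size alone, and by -0.70 and -0.39 in TPM. Relative to it *Krt18* differed by -0.69 and -0.39 with library size alone, and by -0.61 and -0.30 in TPM. Without taking the shift off, 317 genes were called lower and 8213 higher in Tu-primed than in parental cells in TPM (limma), and *Krt8* (-0.30, adjusted p = 0.0029) and *Krt18* (-0.21, 0.032) were among the lower ones, whereas *Krt7* was not (-0.15, 0.076). On that scale *Krt19* (0.46, adjusted p = 0.0067, limma) and *Krt80* (0.33, 0.0067) were higher, and relative to the shift they differed by 0.06 and -0.075. In Spl-primed cells the TPM values of *Krt7* (0.11) and *Krt18* (0.040) turned upward without passing the test. Split by direction, 52.7% of the genes called between Tu-primed and parental cells were higher on the scale of the TMM factors, 77.2% with library size alone and 96.3% in TPM. For Spl-primed cells the shares were 53.3%, 83.5% and 98.4%.

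Base composition moved with the result. *Krt8*, *Krt18* and *Krt7* had a GC content of 57.1%, 56.4% and 54.9%, among the 3138 tested genes richest in GC, whose median log2 fold change in Tu-primed against parental cells was -0.14, beside 0.21 in the 3138 poorest. *Krt19* (57.3%) and *Krt80* (56.2%) were among the richest as well. With GC content and transcript length as offsets in edgeR, *Krt8* differed by -0.64 (adjusted p = 4.7e-06), *Krt18* by -0.51 (3.3e-05) and *Krt7* by -0.56 (3.1e-05) in Tu-primed, and by -0.43, -0.29 and -0.28 in Spl-primed cells, all with an adjusted p of at most 0.0083. *Krt7* was then also called lower in Tu-primed than in Spl-primed cells (-0.28, adjusted p = 0.033). Over the 12 libraries, the log2 CPM of *Krt8*, *Krt18* and *Krt7* followed the library's TMM factor with r of -0.91, -0.86 and -0.81, and the library's correlation with GC content with r of 0.86, 0.89 and 0.90 (n = 12), a description of libraries that also differ by group.

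Transcripts of the same gene did not all follow its total. *Krt8* and *Krt18* each have 1 annotated transcript. Most *Krt7* reads were assigned to Krt7-202, which is annotated as a retained intron: 58.2% to 64.4% in parental and 65.9% to 72.9% in primed libraries. Krt7-202 keeps intron 2 of Krt7-201 (chr15:101414181-101416220, 2040 bases) and has a last exon of 276 bases in place of 2800, so that its share of reads does not show by itself which of the features was read. The full-length coding transcript Krt7-201 had 2710, 1676, 2348 and 3486 reads in parental libraries 1 to 4, and 1145 to 1626 reads in the 8 primed ones. Its share of *Krt7* reads was 19.7% to 27.1% in parental and 12.5% to 17.7% in primed libraries, without overlap. How many of all transcripts separate in this way was not counted. With protein-coding transcripts only, *Krt7* differed from parental cells by -0.90 in Tu-primed (edgeR, adjusted p = 6.2e-05) and by -0.63 in Spl-primed cells (0.0015). A short coding transcript of 642 bases, Krt7-204, held 57.0% to 63.1% of the TPM of *Krt7*, so that the level of *Krt7* per length rests largely on it.

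*Krt80* (ENSMUSG00000037185, chr15:101347444-101370162, minus strand) did not pass the test as a gene, but the estimate of its transcripts differed between libraries. Krt80-205 starts inside the gene, at 101364578, whereas Krt80-201 starts at 101370162. Krt80-205 was assigned 0, 185, 0 and 0 reads in parental libraries 1 to 4. In Tu-primed libraries it was assigned 300, 294, 217 and 174 reads, and in Spl-primed libraries 315, 190, 267 and 324 reads. Hence 8 of 8 primed libraries and 1 of 4 parental libraries had it, at 24.1% to 46.7% and 31.9% of *Krt80* reads. The transcripts share most of their exons, the split is an estimate, and no test was run on it. *Krt19* reads were divided alike in all groups, with 63.8% to 71.5% on the coding Krt19-201 and most of the rest on the processed transcript Krt19-203, which held 48.0% to 56.7% of the TPM of *Krt19*.

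**Figure D4:**
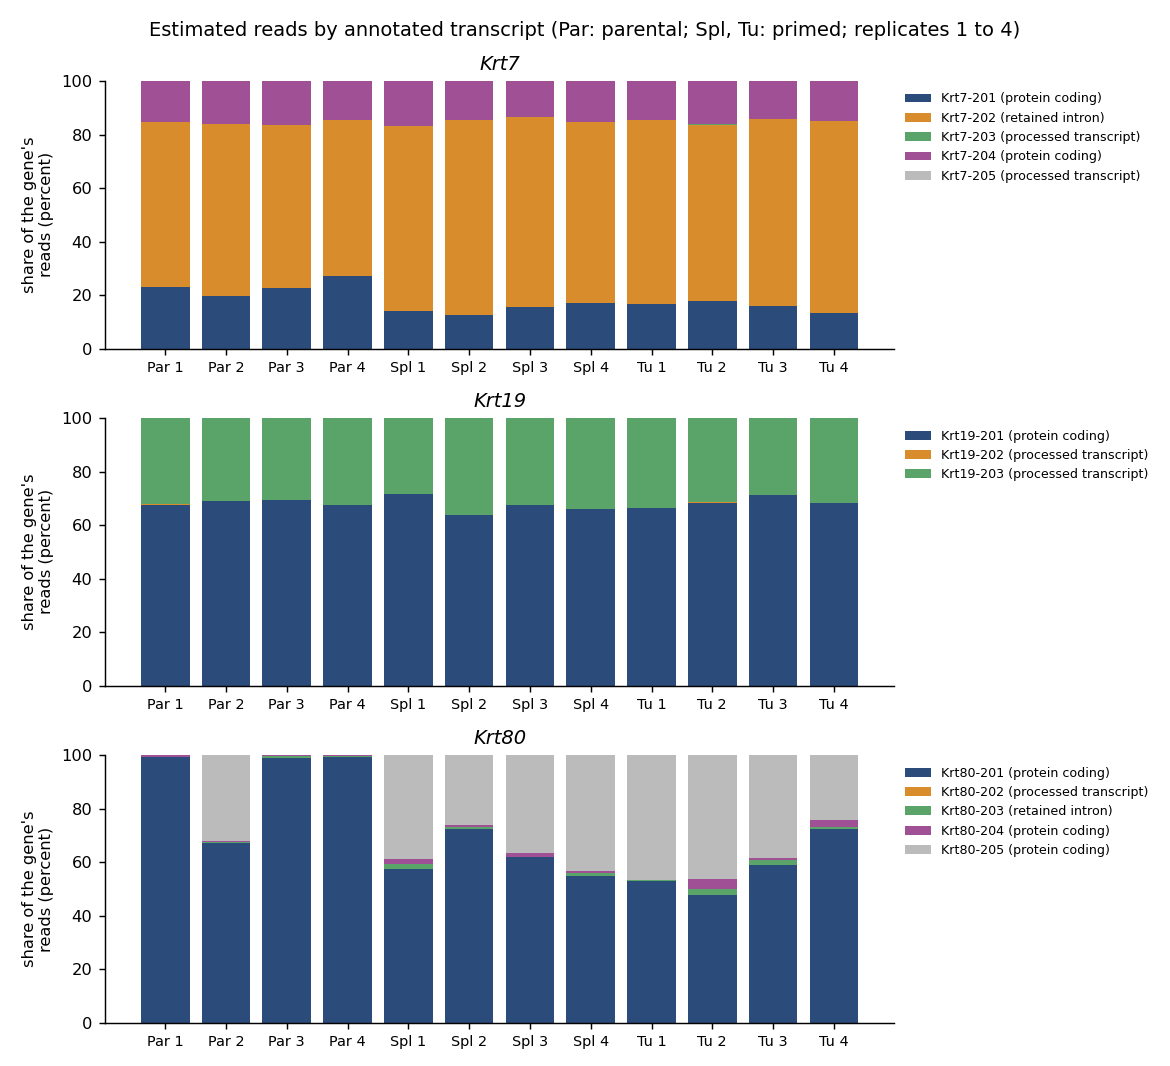
Share of the estimated reads of *Krt7*, *Krt19* and *Krt80* (percent) on each annotated transcript in every library. Krt7-201 has a smaller share in the 8 primed libraries, the split of *Krt19* is similar throughout, and Krt80-205 has no reads in 3 of 4 parental libraries.

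Of 44 other keratin genes listed, 25 had no read in any library, and 4 passed the filter: *Krt10*, *Krt13*, *Krt16* and *Krt23*. *Krt13*, a type I keratin of internal stratified epithelia, had 18, 28, 14 and 17 reads in parental and 32, 31, 32 and 43 in Tu-primed libraries. It was called higher in Tu-primed than in parental cells (log2 fold change 0.71 ± 0.27, SE, edgeR, adjusted p = 0.037), where 31.2% of all genes were. The call was lost under 10 of 25 alternatives, the removal of any Tu-primed library and of parental replicate 1, 3 or 4 among them, with adjusted p between 0.0068 and 0.96 over all of them. No other comparison called any of the 4.

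Cytolinkers, the plakin proteins that tie keratin filaments to junctions and to other filaments, were called lower in part. Of 7 tested, 5 were called lower in Tu-primed and 4 in Spl-primed than in parental cells, beside 28.0% and 22.5% of all genes. In both comparisons 0 were called higher, beside 31.2% and 25.7% of all genes. *Dst* (adjusted p = 0.54 and 0.69) and *Macf1* (0.42 and 0.23) passed the test in neither comparison (edgeR), and *Ppl* did not pass it in Spl-primed cells (0.47). Their median log2 fold changes were -0.52 and -0.55, beside 0.02 and 0.02 over all genes. *Plec* (plectin) differed by -0.83 ± 0.13 in Tu-primed and -0.77 ± 0.13 in Spl-primed cells. *Eppk1* (epiplakin) differed by -0.88 ± 0.19 and -1.18 ± 0.19. *Dsp* (desmoplakin) differed by -0.52 ± 0.11 and -0.55 ± 0.11, while *Ppl* (periplakin) was called lower in Tu-primed cells against both parental (-0.45 ± 0.089) and Spl-primed cells (-0.37 ± 0.089). The second of these calls was lost without Tu-primed replicate 1, 2 or 3 or Spl-primed replicate 1 or 2 (adjusted p 0.0057 to 0.074 over the 12 libraries left out, edgeR), and the sign of the first turned in TPM. These are long transcripts, and their summed level in Spl-primed replicate 3 was 687 CPM, beside 1095 CPM or more in every other library. Without that library 6 and 4 cytolinkers were called lower. With transcript length offsets 3 and 3 were called lower, beside 2897 and 2159 of 12555 genes, and the call of *Dsp* in Spl-primed cells was lost. With GC content and transcript length offsets 5 and 5 were called lower and 1 and 0 higher, beside 4030 and 3706 genes lower and 3972 and 3410 higher. In TPM, not corrected for the shift of all genes, 1 and 2 were called lower and 1 and 2 higher, beside 317 and 117 genes lower and 8213 and 7348 higher.

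Of 13 other intermediate filament genes, 6 were tested. *Vim* (vimentin), the type III filament of mesenchymal cells that 4T1 cells carry beside keratins, had 1626 ± 74.2 CPM in Tu-primed, 1972 ± 131 CPM in Spl-primed and 2982 ± 452 CPM in parental cells. *Vim* differed from parental cells by -0.87 ± 0.092 on the log2 scale in Tu-primed (edgeR, adjusted p = 4.0e-06) and by -0.60 ± 0.091 in Spl-primed cells (0.00016). *Lmna* (lamin A/C) differed by -0.89 ± 0.11 and -0.56 ± 0.11, and *Nes* (nestin) by -0.68 ± 0.10 and -0.53 ± 0.10. In contrast, *Lmnb2* (lamin B2) was higher, by 0.25 ± 0.082 and 0.46 ± 0.081, the former not without Tu-primed replicate 4 or parental replicate 3 (adjusted p up to 0.066, edgeR). So 3 of 6 were called lower and 1 higher in both comparisons (edgeR). Of all genes, 28.0% were lower and 31.2% higher in Tu-primed, and 22.5% and 25.7% in Spl-primed cells. Between Tu-primed and Spl-primed cells 0 were called in either direction, beside 2.97% of all genes lower and 4.66% higher. Those called lower became 1 with DESeq2 (all genes: 510), 2 with only the 8 libraries compared (331) and 2 with GC content and transcript length offsets (837). They were 2 without parental replicate 2 or 4, and 1 without Tu-primed replicate 4.

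**Figure D5:**
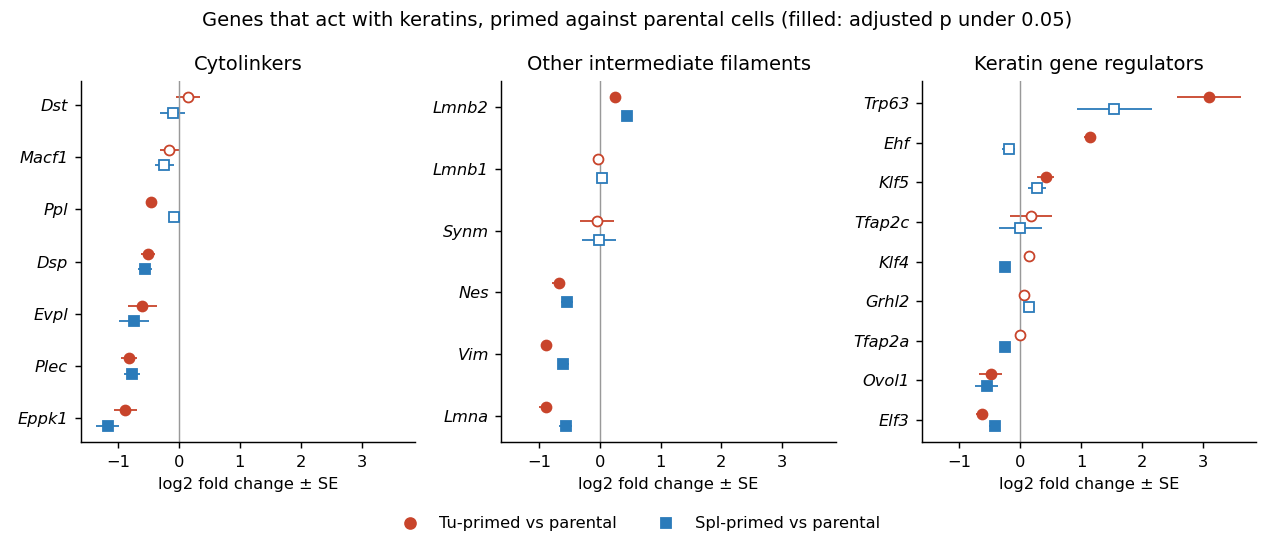
Log2 fold change ± SE against parental cells for the tested genes of 3 lists (circles, Tu-primed; squares, Spl-primed; filled, adjusted p under 0.05). Most cytolinkers, *Nes*, *Vim* and *Lmna* lie left of 0, and the regulators of keratin genes lie on both sides.

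Transcription factors that are known to act on keratin genes moved in both directions. Of 9 tested, 4 were called higher and 0 lower in Tu-primed than in Spl-primed cells, beside 4.66% and 2.97% of all genes. The 4 became 2 with transcript length offsets and 1 in TPM, beside 351 and 326 of 12555 genes called higher. *Ehf*, an ETS factor of luminal epithelium, had 61.2 ± 8.81 CPM in Tu-primed, 24.3 ± 2.88 CPM in Spl-primed and 27.7 ± 0.76 CPM in parental cells, with log2 fold changes of 1.34 ± 0.10 against Spl-primed (edgeR, adjusted p = 5.9e-06) and 1.14 ± 0.10 against parental cells (1.1e-06). *Klf4* was higher in Tu-primed than in Spl-primed cells (0.39 ± 0.064), and so was *Tfap2a* (0.23 ± 0.054), though not without Tu-primed replicate 1 or 3 or Spl-primed replicate 1 or 2 (adjusted p up to 0.074, edgeR). Both were called lower in Spl-primed than in parental cells, with the opposite sign in TPM. *Trp63*, the regulator of basal keratins, had 15, 23, 19 and 12 reads in Tu-primed, 5, 9, 3 and 7 in Spl-primed and 0, 2, 2 and 3 in parental libraries, so that Tu-primed libraries lay above the others. It was called higher in Tu-primed than in parental cells (edgeR, adjusted p = 0.0002) and than in Spl-primed cells (0.036). The second call was lost without any of 7 libraries: Tu-primed replicate 1, 2 or 3, Spl-primed replicate 1, 3 or 4, or parental replicate 3. *Trp63* passed the filter on low counts only through the Tu-primed libraries, where it was high. Its calls, which are part of the counts of regulators and basal markers, are thus a description only. *Krt5* stayed at 0 reads and *Krt14* at 7 to 14. Against parental cells, 3 of the 9 regulators were called higher and 2 lower in Tu-primed cells, beside 31.2% and 28.0% of all genes. There *Klf5* was higher by 0.41 ± 0.14, *Elf3* lower by -0.64 ± 0.092 and *Ovol1* lower by -0.49 ± 0.19. In Spl-primed cells 0 were called higher and 4 lower, beside 25.7% and 22.5% of all genes. The calls of *Klf5* were lost without Tu-primed replicate 1 or parental replicate 3 or 4, and those of *Ovol1* without Tu-primed replicate 2 or 3 or parental replicate 1 or 4.

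Other markers of the lineages were called in both directions, and their counts depended on the scaling. Of 12 luminal markers tested, 3 were called higher and 3 lower in Tu-primed than in parental cells, beside 31.2% and 28.0% of all genes, and 3 and 4 in Spl-primed cells, beside 25.7% and 22.5%. With library size alone the luminal counts were 7 higher and 3 lower in Tu-primed and 4 and 3 in Spl-primed cells. Of all 12555 genes, 5965 were then higher and 1760 lower in Tu-primed, and 5374 and 1061 in Spl-primed cells. In TPM the luminal counts were 9 and 1, and 6 and 0, beside 8213 and 317, and 7348 and 117, of all genes. On the scale of the TMM factors *Cldn4* was higher in both primed groups (0.41 ± 0.090 and 0.39 ± 0.090). So were *Ehf* and *Foxa1* (0.56 ± 0.14) in Tu-primed and *Epcam* (0.30 ± 0.078) and *Csn3* (0.27 ± 0.083) in Spl-primed cells. *Gata3*, the luminal master regulator, was lower in both (-0.39 ± 0.049 and -0.34 ± 0.049, with the opposite sign in TPM), and so was *Cldn3* (-1.06 ± 0.16 and -0.65 ± 0.15). *Cd24a* was higher in Tu-primed than in Spl-primed cells (0.23 ± 0.056), a call lost without Tu-primed replicate 1, 2 or 3 or Spl-primed replicate 2 or 4. Of 12 basal markers tested, 1 was called higher and 3 lower in each comparison with parental cells. The shares of all genes called higher and lower were 31.2% and 28.0% in Tu-primed, and 25.7% and 22.5% in Spl-primed cells. With library size alone the basal counts were 5 higher and 3 lower in Tu-primed and 3 and 2 in Spl-primed cells. In TPM they were 8 and 1, and 6 and 0. The counts of all genes on these scales are those given above beside the luminal markers. On the scale of the TMM factors the lower basal markers were *Vim*, *Itgb4* (-0.54 ± 0.097 and -0.44 ± 0.097) and *Id4* (-0.48 ± 0.082 and -0.32 ± 0.082). The signs of the last 2 turned in TPM in Spl-primed cells. The higher ones were *Trp63* in Tu-primed cells, the group through which alone it passed the filter, and *Procr* (0.19 ± 0.074) in Spl-primed cells. *Egfr* was higher in Tu-primed than in Spl-primed cells (0.45 ± 0.12). The call of *Procr* was lost in 7 and that of *Egfr* in 6 of the 12 fits that left out 1 library, with adjusted p up to 0.19 and 0.12 (edgeR). Of 4 cornified envelope genes tested, *Sfn* was lower in Tu-primed than in parental cells (-0.50 ± 0.15), beside 28.0% of all genes. It was the only call in that list. The call was lost with library size alone, and with GC and length offsets and in TPM the list had 1 gene called higher and 0 lower. With these offsets and in TPM, 3972 and 8213 of 12555 genes were called higher in Tu-primed than in parental cells. Neither of the 2 granulocyte or monocyte markers tested, *Cd14* and *Cxcr2*, was called in any comparison. The others of that list, *Ly6c2* among them, did not pass the filter. The single fibroblast marker tested, *Pdgfra*, was higher in Tu-primed than in parental (0.83 ± 0.12) and Spl-primed cells (0.62 ± 0.12).

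Genes whose pattern over the 12 libraries was most like that of a keratin were sought among 8925 genes with at least 10 CPM. For *Krt8* they were *Fah*, an enzyme of tyrosine breakdown, *Ppp6r1*, a subunit of protein phosphatase 6, and *Thop1*, a peptidase (Pearson r of log2 CPM 0.987 to 0.990, n = 12). *Krt18* and *Krt7* shared *Msto1* and *Gstm1* (0.986 to 0.989), followed by *Mllt1* (0.984) and *Hmga1b* (0.984), the latter a near copy of *Hmga1* whose reads may be split. For *Krt19* the values were lower, with *Bckdha* (0.937), *Plin3* (0.872) and *Dbn1* (0.871), and for *Krt80* they were *Polr2c* (0.916), *Tm2d3* (0.894) and *Cby1* (0.893). These correlations describe libraries that share group, depth and base composition.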

How the data were processed

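The authors deposited, for each of the 12 libraries, a table with an estimated count of reads per Ensembl transcript, not normalized, and a TPM value, scaled by their quantification for transcript length and library size. The submitters' processing notes name FastQC, Trimmomatic 0.39, Salmon 1.4.0 and GRCm38 (mm10); the annotation release is not given in the sources used here. A deposited gene table of values named normalized counts was not used, since the library counts were at hand. Expected counts were summed over each gene's transcripts with GENCODE M21 (116021 of 117081 transcripts matched) and rounded. Gene counts were tested with edgeR 4.0.16 (filterByExpr, TMM, quasi-likelihood F test, 1 fit of 12 libraries, 3 contrasts), limma 3.58.1 and DESeq2 1.42.0 in R 4.3.3, with Benjamini-Hochberg adjustment over 12555 genes and a threshold of 0.05. Each standard error was taken as the size of the difference divided by the root of F. Tables and plots were made in Python 3.11.15 (pandas 2.3.3, numpy 2.4.6, matplotlib 3.10.9). The steps were tested on simulated data. The keratins and gene lists were chosen with earlier results of these data known. The genes named are all 9 keratins, every other keratin called, the 3 called genes of each list with the smallest p per direction and comparison, and, for each keratin with a mean of at least 10 CPM, the 3 genes of that level with the highest correlation. The precision is given by the spread of 4 libraries. Alternatives are other scalings, filters, tools and transcript sets, a replicate block and each library left out.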

Additional observations from a re-analysis of the deposited data

Results flagged for a closer look

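Among 18 groups of 4 libraries (6 keratins in 3 groups), 1 held a library far from the others. *Krt19* in Tu-primed replicate 4 had 59.2 CPM, beside 42.0 to 44.1 CPM in the other Tu-primed libraries, and its gap took 0.86 of the range of the group on the log2 scale, above Dixon's 95% critical value for 4 samples. Chance flags about 1 in 20 such groups. Its cause was not tested.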

How the results depend on the processing

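Of 441 refits of the 18 keratin differences, 399 kept their direction and side of the threshold, 10 lost a call, 14 gained one and 18 changed sign, 15 of these without passing the test under either setting. Those 15 were *Krt19* in Tu-primed against parental cells (-0.014 with RLE factors, -0.0046 without a filter, -0.014 with DESeq2, -0.0091 with transcript length offsets, -0.12 to 0.15 when a library was left out) and in Spl-primed cells (0.22 in TPM), *Krt80* in Tu-primed against parental cells (0.046 with library size alone), and *Krt14* (-0.025 with transcript length offsets and -0.078 to 0.34 when a library was left out between Tu-primed and Spl-primed cells, -0.35 to 0.057 against parental cells). Between Tu-primed and Spl-primed cells the count of keratins called lower, 0, became 1 with DESeq2, 3 with only the 8 libraries compared, 1 with GC content and transcript length offsets and 0 to 3 when a library was left out. The cause was not tested. Against parental cells, the 3 lower keratins in Tu-primed cells were 3 in every case where a library was left out. The count of keratins called higher became 2 in TPM in Tu-primed cells, and 1 in TPM and 1 with library size alone in Spl-primed cells. In Spl-primed cells the 3 lower keratins became 1 (*Krt8*) with library size alone, 0 in TPM and 1 at an adjusted p under 0.01, with 2 to 3 when a library was left out, and upper-quartile scaling lost *Krt7* (adjusted p = 0.066). Library size alone, TPM and the GC offsets were added after seeing the data. In TPM, on which the median of all genes is shifted, signs turned for *Krt18* (0.040), *Krt7* (0.11), *Gata3* (0.11), *Itgb4* (0.0089), *Id4* (0.072), *Tfap2a* (0.16) and *Klf4* (0.12) in Spl-primed, and for *Krt80* (0.33), *Ppl* (0.023) and *Gata3* (0.081) in Tu-primed against parental cells. All genes called lower between Tu-primed and Spl-primed cells, 373, became 837 with GC offsets, 146 with transcript length offsets, 41 in TPM and 118 without Tu-primed replicate 3; those called higher, 585, became 1011, 351, 326 and, without that replicate, 407. Of the called genes 61.1% were higher, 67.7% with library size alone and 88.8% in TPM. Lower genes against parental cells, 3515 and 2828, became 1760 and 1061 with library size alone and 317 and 117 in TPM; higher ones, 3919 and 3225, became 5965 and 5374, and 8213 and 7348.

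Libraries with the same replicate number correlated between -0.16 and 0.15 over 12 pairs, 2 of them above 0.1, and 36 other pairs between -0.22 and 0.17. No pairing by number was thus seen, which does not exclude one, and the labels do not give it. With the replicate block, 3, 3 and 0 keratins were called lower (Tu-primed and Spl-primed against parental, Tu-primed against Spl-primed), and 488 genes were called higher and 256 lower between Tu-primed and Spl-primed cells. The basal keratin share moved by less than its spread with counts divided by exon length, with protein-coding transcripts only and without each library of its group. *Krt5*, *Krt6a* and *Krt17* had too few reads to pass the filter and were not tested, and *Krt14*, with 7 to 14 reads, had a wide interval.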
